A study of Mus musculus with 2 samples.

Results

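The genes described here are 10 genes of the S100 family and of neutrophil granules: S100a4, S100a6, S100a8, S100a9, S100a10, S100a11, Elane, Mpo, Camp and Lcn2. They were taken by name from an expression array, where they have 13 of 39420 usable probes and make up 10 of 22801 named genes. The arrays compare Lamtor1 knockdown RAW264.7 cells with control RAW264.7 cells, 1 array each. RAW264.7 is a mouse macrophage-like line. Lamtor1 is the membrane anchor of Ragulator, which keeps Rag GTPases and the kinase complex mTORC1 at lysosomes, and the study was designed to look at the activity of the transcription factor TFEB without Ragulator. The knockdown cells had been infected with a lentiviral mixture of 2 vectors that express short hairpin RNA against Lamtor1, and had then gone through limiting dilution. The labels attach the same protocol to the control cells, so the sources used here leave unsaid both what the control cells were given and if any of these lines came from 1 clone. With 1 array per group no difference below has a replicate check, no test was possible, and each value describes these 2 arrays only.

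S100 proteins are small calcium-binding proteins with paired EF-hand loops that act mostly as dimers. S100a4, S100a6, S100a10 and S100a11 are cytosolic proteins of many cell types that bind annexins, cytoskeletal proteins and other partners. S100a8 and S100a9 form calprotectin, an alarmin that fills the cytosol of neutrophils and is also made by activated monocytes and macrophages. Elane, neutrophil elastase, and Mpo, myeloperoxidase, are packed into the primary granules of neutrophil precursors. Camp, the cathelicidin antimicrobial peptide precursor, and Lcn2, which starves bacteria by binding their iron carriers, belong to the secondary granules, although macrophages can also make Lcn2. Transcription factors of the C/EBP family and PU.1 drive many of these genes in myeloid cells.

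The array reads each gene through probes of 60 bases. Of the 13 probes, 9 were well above background by the scanner's flag on at least 1 array, 8 of them on both, and these 9 probes stand for 8 of the 10 genes. S100a9 and Mpo had no probe above background on either array. Probes of S100a8, S100a6 and S100a4 are shown as examples from one family. Each carries an open reading frame through its whole length, as do other probes among the 13. Whether they tell members of the family apart was not tested, since no probe was compared with other transcripts. In the S100a8 probe the capitals mark the 36 bases whose translation matches the calcium-binding EF-hand loop pattern. In the other pair they mark the longest run that the S100a4 and S100a6 probes share.
S100a8 probe A_51_P256827: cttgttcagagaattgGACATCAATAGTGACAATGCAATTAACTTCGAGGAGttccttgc
S100a6 probe A_51_P281089: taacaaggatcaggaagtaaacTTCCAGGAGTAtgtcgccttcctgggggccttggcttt
S100a4 probe A_55_P1983450: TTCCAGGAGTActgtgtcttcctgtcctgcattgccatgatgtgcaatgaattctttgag
That shared run of 11 bases is the longest between probes of different genes among the 13. By the files' mm9 positions, the S100a8 probe lies at chr3:90473778-90473837, the S100a6 probe at chr3:90418160-90418219 and the S100a4 probe at chr3:90409734-90409793, all on the plus strand. Exon and UTR annotation of that build was not used here.

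As a check of the labels, Lamtor1 itself had a signal of 931 on the knockdown array and 20046 on the control array, which is 23.1-fold lower after scaling (log2 difference -4.53). Its single probe, A_55_P2052185, is named in the files by an older symbol. On the knockdown array 22745 of 43020 spots (52.9%) were well above background, against 22929 (53.3%) on the control array, and no spot was saturated. Of 8 macrophage markers 7 were above background on both arrays, and Mertk was the exception. Summed signals in this paragraph take the brightest probe of every marker on a list, also of markers not above background. For the 8 macrophage markers the sum was 265908 in the knockdown and 364246 in the control. Of the 7 measured, 1 was higher by 2-fold or more, Cd68 at 16625 in the knockdown and 6646 in the control. By their brightest probes 2 were lower, Adgre1 at 2461 in the knockdown and 6773 in the control and Fcgr1 at 31.0 in the knockdown and 2093 in the control. Csf1r had a log2 difference of -0.82 by its brightest probe, with its 3 probes between -1.34 and -0.82. Over all 13772 genes measured by their brightest probe, 9.00% were higher and 8.35% lower by 2-fold or more. Of 8 neutrophil markers 1, the receptor gene Csf3r, was above background on both, at 32053 in the knockdown and 41982 in the control. All 8 summed to 32093 in the knockdown and 42015 in the control. Ly6g, Cxcr2, Retnlg, Mmp8, Cd177, Ngp and Ltf were not well above background on either array. Of 8 osteoclast markers 6 were above background in the knockdown and 7 in the control, with summed signals of 65983 in the knockdown and 9349 in the control. Ctsk, the collagen-degrading cathepsin, held most of the knockdown sum, at 59043 in the knockdown and 2886 in the control. Of the 7 measured osteoclast markers, 2 were higher by 2-fold or more (Ctsk and Itgb3) and 3 were lower. Ocstamp was 4.85-fold lower, Dcstamp 2.75-fold lower, and Calcr, above background in the control alone, at least 1.88-fold lower, with a measured difference of -1.24. Of 6 mast cell and eosinophil markers 2 were above background on both arrays. All 6 summed by brightest probes to 93.5 in the knockdown and 91.6 in the control. Siglecf, 1 of the 2 above background, had a log2 difference of 0.35 by its brightest probe and of 3.63 by its other probe. Above background on both arrays were also 1 of 5 T and B cell markers (summed signals 517 in the knockdown and 464 in the control) and 1 of 6 fibroblast and epithelial markers (58.9 in the knockdown and 65.5 in the control). The part of any such cells in the values below was not tested, and in bulk RNA fewer cells of a type and less RNA per cell cannot be told apart.

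Signals below are the scanner's processed intensities. A level is the log2 of a signal after division by its own array's 75th percentile, a difference is knockdown minus control on that scale, and ± gives the scanner's own error estimate for the difference. That error covers 1 spot on each array and neither cultures nor labelling, and the number of arrays limits the precision. Its lowest value for any probe above background was 0.20. Bright probes share that value, so for them it is not a measured spread of the probe. Among the 9 member probes above background, 2 were higher in the knockdown by 2-fold or more (S100a8 and Elane), 1 was lower by 2-fold or more (S100a11) and 6 lay within 2-fold. Over all 21863 probes above background on at least 1 array, 8.46% were higher by that much and 8.36% lower, and the median difference was -0.07. The 9 probes are too few to set their share against these.

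**Figure D1:**
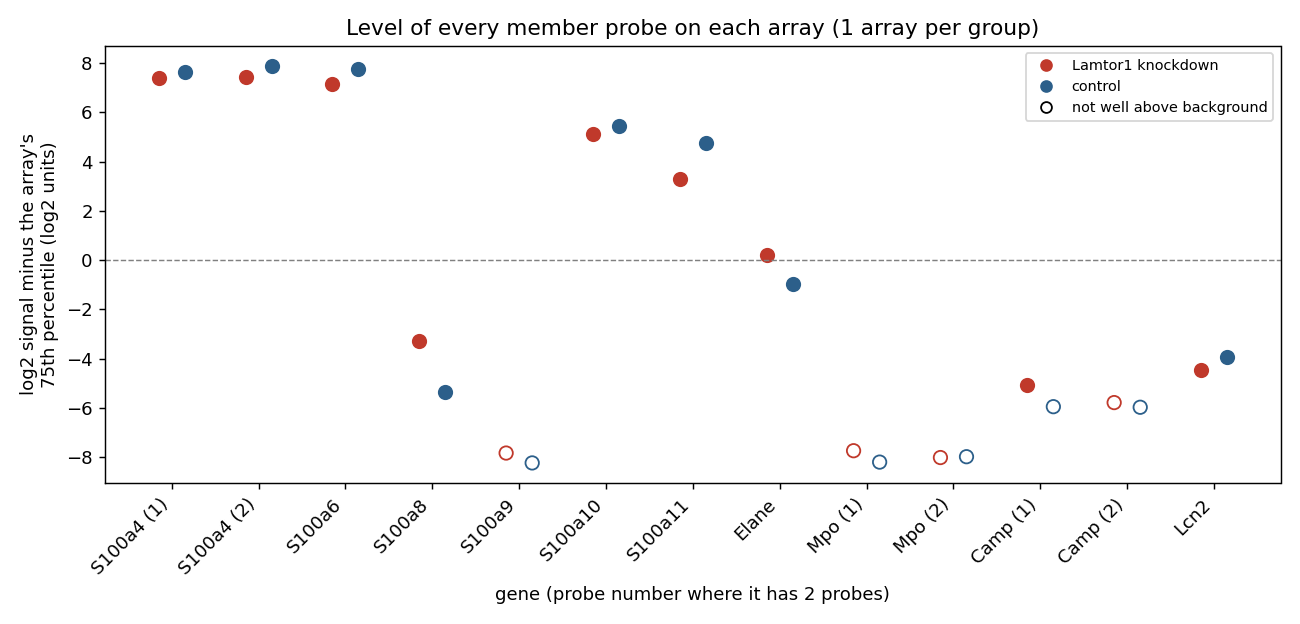
Log2 level relative to the array's 75th percentile (vertical axis) of all 13 member probes (horizontal axis, numbered by probe identifier where a gene has 2 probes) on the Lamtor1 knockdown array (red) and the control array (blue). Open circles are signals not well above background: both S100a9 signals, all 4 Mpo signals, 3 of the 4 Camp signals.

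The cytosolic S100 genes S100a4, S100a6, S100a10 and S100a11 were all lower in the knockdown, by amounts from 1.18-fold to 2.74-fold, and each of their 5 probes was well above background on both arrays. Over all 21863 probes above background on at least 1 array, 12374 had a difference below 0, and 5 probes are too few to set against that. S100a11, a partner of annexin A1 that takes part in membrane repair, showed the largest difference of the 5 probes. Its signal was 12290.3 in the knockdown and 31490.4 in the control, so its level was 3.29 in the knockdown and 4.75 in the control. The difference was -1.46 ± 0.20, or 2.74-fold lower. Of all probes above background, 5.13% had a difference at or below this one. The single probe, A_55_P2065991, lies at chr3:93330022-93330081 in mm9.

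The other 3 of these genes stayed within 2-fold. S100a6, calcyclin, had a signal of 176202 in the knockdown and 251658 in the control, a difference of -0.61 ± 0.20 or 1.53-fold lower. S100a4, also known as metastasin, which binds non-muscle myosin, has a pair of probes. The probe printed above gave signals of 216853 in the knockdown and 278462 in the control, a difference of -0.46 ± 0.20. The other, A_55_P1983448 at chr3:90409908-90409967, gave 209839 in the knockdown and 230639 in the control, a difference of -0.24 ± 0.20. Both S100a4 probes thus pointed the same way, and the difference by A_55_P1983448 lay close to the scanner error. S100a10, which binds annexin A2 and has lost the ability to bind calcium, had signals of 43766 in the knockdown and 50710 in the control, a difference of -0.31 ± 0.20 (1.24-fold lower), at chr3:93368437-93368496. Under the 9 other ways of processing that were tried, all 5 probes kept a difference below 0. The changes of filter and the bounds leave the values of these 5 probes as they were, so not all 9 could have differed. S100a4 by probe A_55_P1983448 ran from -0.28 to -0.08, the S100a6 probe from -0.66 to -0.47 and the S100a10 probe from -0.35 to -0.22, while S100a11 was never closer to 0 than -1.36.

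The calprotectin pair did not look alike on these arrays, since S100a8 was detected and S100a9 was not. S100a8 had a signal of 129 in the knockdown and 28.6 in the control, and both passed the scanner's flag. The unprocessed spot means were 207 in the knockdown and 91.7 in the control, over local backgrounds of 26 in the knockdown and 28 in the control. Its level was -3.28 in the knockdown and -5.36 in the control, a difference of 2.08 ± 0.29 or 4.22-fold higher. Of all probes above background, 3.77% had a difference at or above this one. The control signal lay near the lowest signal that passed the flag on that array, 18.7, and with normexp background correction S100a8 was 2.05-fold higher. S100a9 had signals of 5.50 in the knockdown and 3.89 in the control, and neither passed the flag. The spot means were 62.8 in the knockdown and 55.3 in the control, and the control signal was a surrogate value put in by the scanner. No fold is given for S100a9, whose probe A_55_P1998471 lies at chr3:90496573-90496632 on the minus strand. Whether S100a9 differed between the arrays could not be seen at these signals, and other probes for it were not used here.

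**Figure D2:**
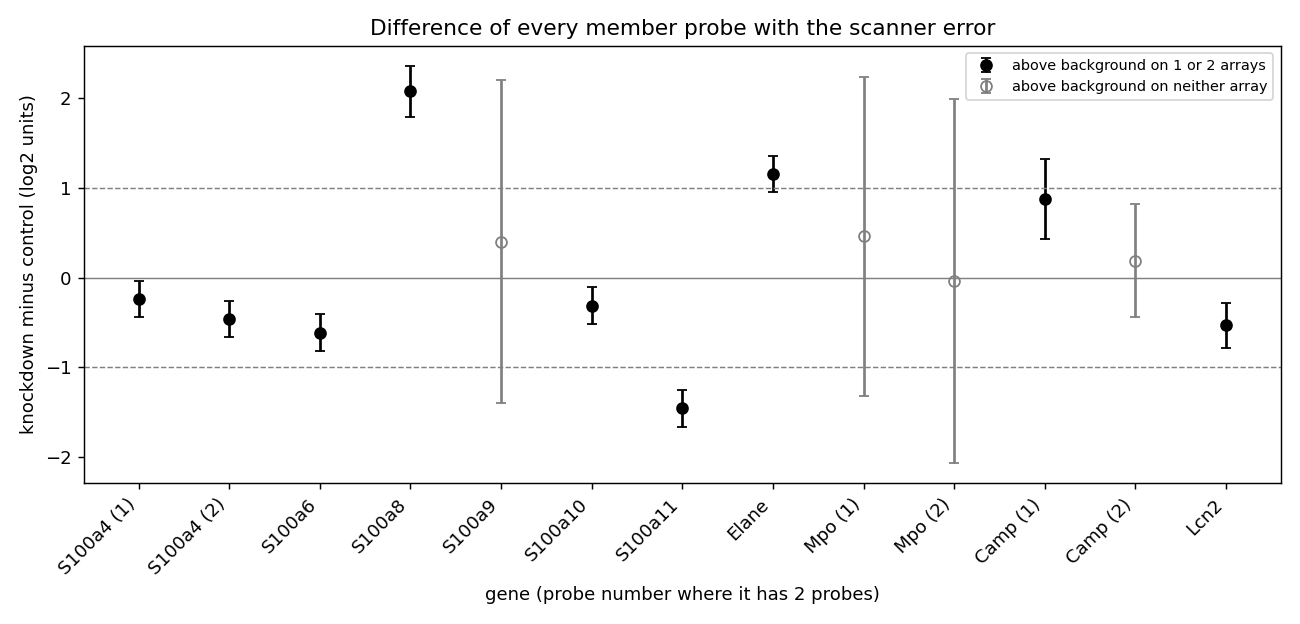
Knockdown minus control in log2 units (vertical axis) for the 13 member probes (horizontal axis), with bars for the scanner error of 1 spot on each array and dashed lines at 2-fold. S100a8 (2.08) and Elane (1.16) lie above the upper line and S100a11 (-1.46) below the lower one, while the grey probes above background on neither array have errors wider than their differences.

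Among the granule genes, Elane was higher in the knockdown, Lcn2 was slightly lower, Camp was at the limit of detection and Mpo was not detected. Elane encodes the serine protease that degrades matrix and bacterial proteins. Its signal was 1442 in the knockdown and 603 in the control, well above background on both arrays. The level was 0.20 in the knockdown and -0.96 in the control, a difference of 1.16 ± 0.20 or 2.23-fold higher. Of all probes above background, 7.07% had a difference at or above this one. With normexp it was 2.12-fold higher. The probe, A_66_P137219, lies at chr10:79350902-79350961.

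Mpo makes hypochlorous acid from hydrogen peroxide and shares the primary granule with elastase, but neither of its probes was above background. Probe A_55_P1995537 had signals of 5.87 in the knockdown and 3.98 in the control, and probe A_55_P2066505 had 4.84 in the knockdown and 4.63 in the control. For the control signal of A_55_P1995537, and for A_55_P2066505 on both arrays, the scanner had put in surrogate values. Elane was thus measured on both arrays and Mpo on neither.

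Camp has a pair of probes that overlap by 50 bases of sequence and differ at 2 of them, so they are not independent readings. Probe A_55_P2039699 (chr9:109749911-109749970) had a signal of 37.2 in the knockdown, which passed the flag, and 18.9 in the control, which did not. By this probe Camp was 1.84-fold higher as measured, with a difference of 0.88 ± 0.45, but 1.17-fold higher with normexp. The control signal lay above the lowest signal that passed the flag on that array, 18.7. The bound is therefore the measured value itself and adds nothing to it. Probe A_55_P2158102 had 22.8 in the knockdown and 18.6 in the control, neither above background. The overlapping probe therefore adds no second detection, and Camp passed the flag through 1 spot on 1 array.

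Lcn2 had a signal of 57.2 in the knockdown and 77.0 in the control, both above background. Its difference was -0.53 ± 0.25 or 1.44-fold lower, and between -0.57 and -0.28 under the other ways of processing. The probe, A_55_P2070869, lies at chr2:32240199-32240258.

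**Figure D3:**
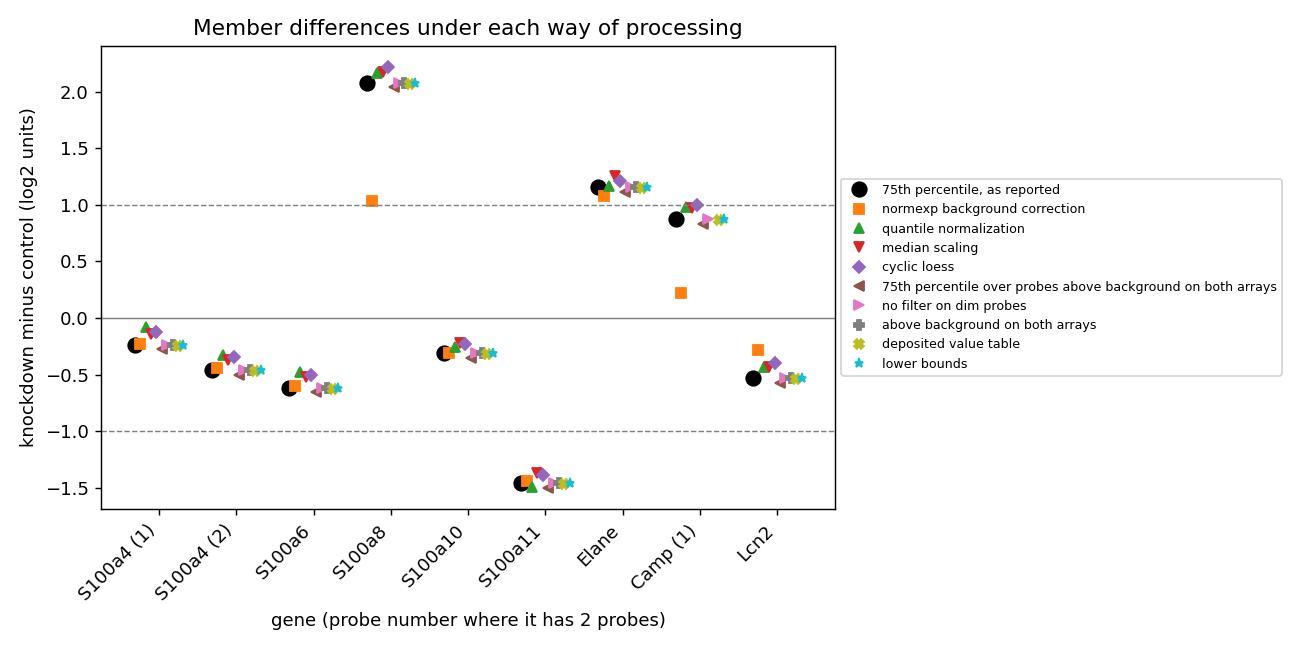
Knockdown minus control in log2 units (vertical axis) for the 9 member probes above background (horizontal axis) under 10 ways of processing (9 for Camp, which drops out where both arrays must be above background), the larger black circle being the value reported. S100a8 and Elane stay above 1 and S100a11 below -1 in all of them, and normexp (orange squares) brings S100a8 to 1.03 and Camp to 0.22. The changes of filter and the bounds leave the values of S100a8, Elane and S100a11 as they were.

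The S100 genes form a cluster on chromosome 3, and the differences along it did not run in one direction. The array carries 14 S100 genes of this chromosome, counted after their values were seen, and 11 of them had a probe above background. Of these, 3 had all such probes above 0 (S100a1, S100a13 and S100a8) and 8 had all of them below 0. Over all 13772 genes measured by their brightest probe, 6293 were above 0 and 7479 below 0, and 11 genes are too few to set against these. S100a1, best known as a calcium sensor of muscle, had signals of 27212 in the knockdown and 6388 in the control by its brighter probe. Its differences were 1.99 ± 0.20 and 2.07 ± 0.20 by both of its probes, close to 4-fold higher. S100a13, which takes part in the release of growth factors that lack a signal peptide, had signals of 15465 in the knockdown and 9745 in the control, a difference of 0.57 ± 0.20. S100a16 differed by -0.13 ± 0.20, within the scanner error.

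S100a3 and S100a5, which flank S100a4 on the chromosome, were lower by more than S100a4 was. S100a5 had signals of 46.1 in the knockdown and 297 in the control, a difference of -2.79 ± 0.25 or 6.91-fold lower, and 3.38-fold with normexp. S100a3 had 117 in the knockdown and 359 in the control, a difference of -1.71 ± 0.21 or 3.28-fold lower, and 2.49-fold with normexp. S100a2, which is in none of the lists and was picked out after its values were seen, had 46.8 in the knockdown and 80.9 in the control, a difference of -0.89 ± 0.28. S100a14 and S100a7a had no probe above background, nor did S100b, S100g and S100z, which lie elsewhere. Of the list of 10 other S100 genes 5 were measured, of which 1 was higher and 2 were lower by 2-fold or more, and the median was -0.13. Among all 13772 genes measured by their brightest probe, 9.00% were higher and 8.35% lower by 2-fold or more, and the median was -0.05.

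**Figure D4:**
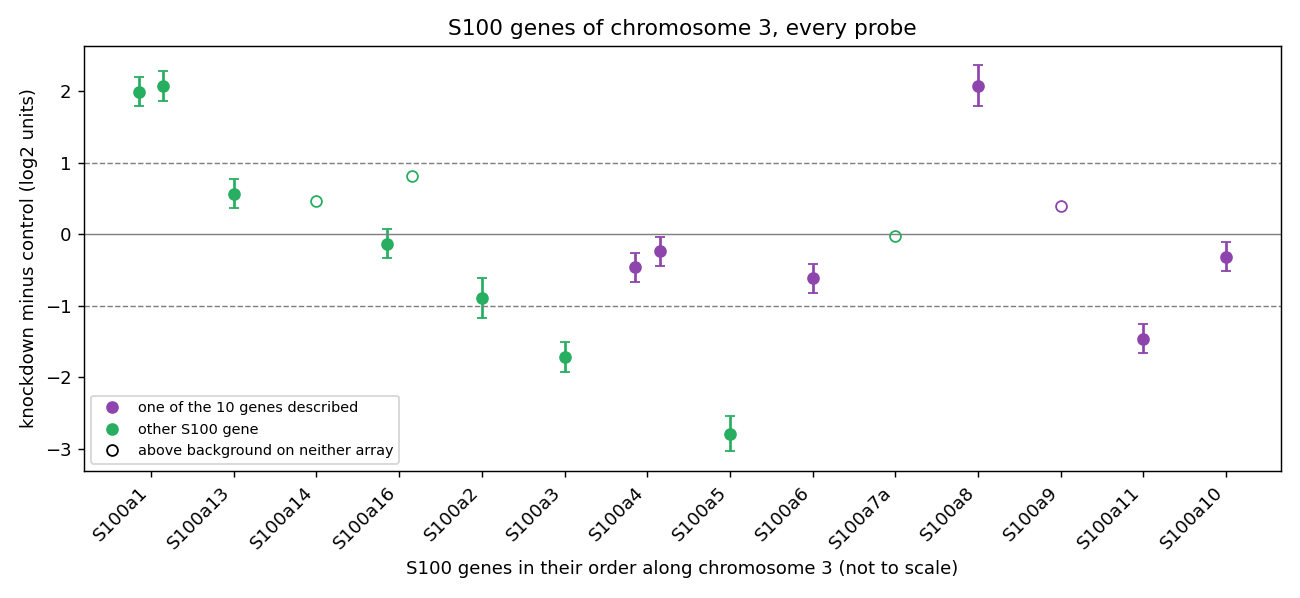
Knockdown minus control in log2 units (vertical axis) for every probe of the 14 S100 genes of chromosome 3, in their order along the chromosome and not to scale (horizontal axis), with scanner errors for probes above background. S100a1 and S100a8 lie above the upper 2-fold line, S100a3, S100a5 and S100a11 below the lower one, and open circles are probes above background on neither array.

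Of 17 genes for partners and receptors of the S100 proteins 15 were measured, none was at least 2-fold higher, 1 was at least 2-fold lower and 14 lay within 2-fold, with a median of 0.05. Among all measured genes 11382 of 13772 lay within 2-fold, so the list was near the background. The gene outside 2-fold was Cd36, a scavenger receptor that takes up fatty acids and to which calprotectin has been reported to bind. Its signal was 33.3 in the knockdown and 1204 in the control, 38.7-fold lower and 13.8-fold with normexp. Anxa1, whose annexin pairs with S100a11, had signals of 106704 in the knockdown and 53739 in the control, a difference of 0.89 ± 0.20, the opposite direction to S100a11. Its other probe gave 1.08. Anxa11 had a difference of 0.48 by its brightest probe and -0.10 by the other. Bsg, which encodes the surface protein basigin, differed by -0.46 ± 0.20, and Tlr4, the endotoxin receptor that also recognises calprotectin, by 0.35 ± 0.20. Anxa2, named here as the partner of S100a10 although the rule for naming did not reach it, differed by -0.16 ± 0.20. Ager, the receptor for advanced glycation end products that binds many S100 proteins, was not well above background on either array.

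Further primary granule genes were mixed. Of 12 genes 7 were measured, of which 2 were higher and 3 lower by 2-fold or more, and the median was -0.45. Over all measured genes 9.00% were higher and 8.35% lower by that much, and 7 genes are too few to set against these shares. Serpinb1a, a cytosolic inhibitor of neutrophil elastase and related proteases, had signals of 3856 in the knockdown and 426 in the control. Its difference of 3.08 ± 0.20, or 8.45-fold higher, ran in the same direction as that of Elane. Cd63, a tetraspanin of granule and lysosome membranes, was 2.07-fold higher, with signals of 189931 in the knockdown and 85764 in the control. Cst7, an inhibitor of cathepsins, was 3.14-fold lower (signals 445 in the knockdown and 1305 in the control). Srgn, the proteoglycan core that packs proteases into granules, was 2.23-fold lower (signals 15868 in the knockdown and 33022 in the control). Lyz1, a lysozyme gene, was 2.61-fold lower by its probe, but its paralog Lyz2 is nearly identical and whether the probe tells them apart was not tested. Lyz2 itself, outside the rule for naming, had a difference of -0.45. The serine protease genes Prtn3, Ctsg and Prss57, relatives of Elane, were not well above background on either array, nor were Bpi and Ms4a3.

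Most secondary and tertiary granule genes were not detected. Of 17 genes 5 were measured and 12, Ltf, Ngp, Mmp8 and Mmp9 among them, were above background on neither array. Of the 5 measured genes, 1 was higher and 2 were lower by 2-fold or more. Over all measured genes the shares were 9.00% higher and 8.35% lower, and 5 genes are too few to set against them. Cybb and Cyba encode the heavy and light chains of the membrane cytochrome of the phagocyte NADPH oxidase. Cybb was 3.05-fold lower, with signals of 1872 in the knockdown and 5333 in the control. Cyba went the other way, with a difference of 0.79 ± 0.20 by its brightest probe and 0.91 by its other probe. Hp, haptoglobin, had signals of 34.3 in the knockdown and 71.9 in the control, 2.24-fold lower and 1.51-fold with normexp. Lrg1 was above background in the knockdown alone (44.3, against 19.6 in the control). It was 2.11-fold higher as measured, its bound being that same value, and 1.30-fold higher with normexp. Adam8 differed by -0.26 ± 0.20. The median of these 5 genes was -0.26.

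**Figure D5:**
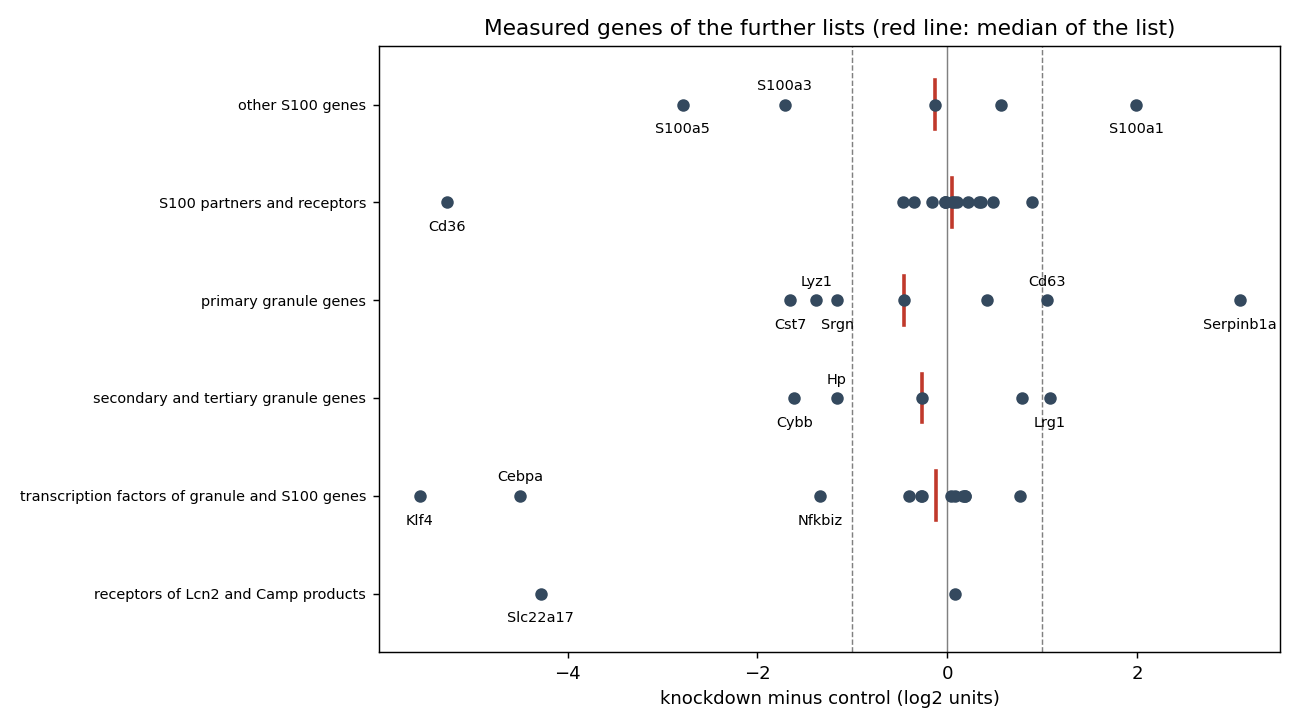
Knockdown minus control in log2 units (horizontal axis) for each measured gene of the 6 further lists (rows), with names for genes at 2-fold or more, dashed lines at 2-fold and a red line at the median of each list of more than 2 measured genes. Klf4, Cebpa, Cd36 and Slc22a17 lie furthest to the left and Serpinb1a (3.08) furthest to the right.

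Of the transcription factors that act on granule and S100 genes, 12 of 14 were measured. None was at least 2-fold higher, 3 were at least 2-fold lower and the median was -0.12. Over all measured genes 9.00% were higher and 8.35% lower by that much, and 12 genes are too few to set against these shares. Cebpa, which starts granulocyte and monocyte differentiation, had signals of 90.2 in the knockdown and 1908 in the control, 22.6-fold lower and 13.5-fold with normexp. Klf4, a monocyte factor, had signals of 63.6 in the knockdown and 2798 in the control, 47.1-fold lower and 20.5-fold with normexp. Nfkbiz, which encodes an inducible cofactor of NF-kappaB needed for Lcn2 induction, was 2.53-fold lower (signals 46.2 in the knockdown and 109 in the control), but 1.62-fold lower with normexp. Cebpe, the C/EBP member of late granulocyte maturation, differed by 0.77 ± 0.20, and Bcl3 by -0.41 ± 0.20. Runx1 differed by -0.28 by its brightest probe and by -1.16 by its other probe. Myb and Klf5 were not well above background on either array.

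Of 4 genes for receptors of the Lcn2 and Camp products, 2 were measured. Slc22a17, the lipocalin-2 receptor, had signals of 86.0 in the knockdown and 1565 in the control, 19.5-fold lower, with a difference of -4.29 that was -3.46 with normexp. Its ligand gene Lcn2 was lower by 1.44-fold on the same arrays. P2rx7, an ATP-gated channel that human cathelicidin acts on, differed by 0.08 ± 0.21, with its 3 probes between 0.02 and 0.26. Fpr2 and Lrp2 were not well above background on either array.

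The promoters of S100a8 and Elane (higher by 2-fold or more), of S100a9 (the undetected partner of S100a8) and of S100a11 (lower by 2-fold or more) are shown for the letters that C/EBP factors and PU.1 are known to favour. They are the 250 bases before the start of the gene in RefSeq's table of GRCm38.p6, which held 9 of the 10 genes. Capitals mark TTNNGNAA for C/EBP and GAGGAA for PU.1, each searched on both strands, and no match of one overlaps a match of the other in them.
S100a8, chr3:90668821-90669070, plus strand: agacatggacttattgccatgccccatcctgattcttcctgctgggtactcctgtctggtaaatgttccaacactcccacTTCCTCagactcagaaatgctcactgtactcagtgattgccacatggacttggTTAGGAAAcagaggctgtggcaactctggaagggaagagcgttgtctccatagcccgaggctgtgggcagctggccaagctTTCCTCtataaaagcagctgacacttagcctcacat
S100a9, chr3:90695722-90695971, minus strand: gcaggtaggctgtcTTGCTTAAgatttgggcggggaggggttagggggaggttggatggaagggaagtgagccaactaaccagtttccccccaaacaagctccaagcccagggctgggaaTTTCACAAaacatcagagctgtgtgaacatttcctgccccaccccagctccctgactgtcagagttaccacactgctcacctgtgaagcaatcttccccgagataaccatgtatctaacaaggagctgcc
Elane, chr10:79886062-79886311, plus strand: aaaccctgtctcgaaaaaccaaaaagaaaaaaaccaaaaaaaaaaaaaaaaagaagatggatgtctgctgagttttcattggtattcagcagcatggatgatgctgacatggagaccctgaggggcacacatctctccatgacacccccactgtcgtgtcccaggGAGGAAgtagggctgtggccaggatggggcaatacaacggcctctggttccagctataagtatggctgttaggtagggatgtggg
S100a11, chr3:93520246-93520495, plus strand: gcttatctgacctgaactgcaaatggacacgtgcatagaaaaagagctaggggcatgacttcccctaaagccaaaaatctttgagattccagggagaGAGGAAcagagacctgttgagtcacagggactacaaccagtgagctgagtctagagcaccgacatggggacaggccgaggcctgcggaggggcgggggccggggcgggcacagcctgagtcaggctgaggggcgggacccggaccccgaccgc
S100a8 had 1 C/EBP match and 2 PU.1 matches, S100a9 had 2 C/EBP matches and no PU.1 match, and Elane and S100a11 each had 1 PU.1 match and no C/EBP match. Of the 9 promoters, 3 held a C/EBP match and 5 a PU.1 match. Among all 32851 promoters in that table, the same stretch held a C/EBP match in 36.8% and a PU.1 match in 23.3%. The 9 promoters are too few to set against these shares. A match is a run of letters and not a measured binding site.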

How the data were processed

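Gene expression was measured on 1-colour (Cy3) Agilent arrays of 1 Lamtor1 knockdown and 1 control sample, from 200 ng of total RNA each per the labels. The deposited scanner files hold linear intensities per spot, made with Agilent Feature Extraction 10.7.3.1 according to the submitters' processing notes. Per the file headers, intensities were background-corrected and detrended within each array, surrogates were in use, and probe positions are those of mm9. Among the member probes, some signals that failed the well-above-background flag were surrogates and others were not. The series' deposited table carries these intensities in rounded form (ratio of scanner to table values 0.995 to 1.005, so linear and uncentred), with medians over spots that are not controls of 34.4 in the knockdown and 34.2 in the control.

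Each processed intensity was divided by the 75th percentile of its array (1255 knockdown, 1172 control) and put on the log2 scale. Spots flagged as outliers were left out, which removed 9 of 39429 probes, and repeated spots were averaged. A probe entered the counts where over 50% of its spots were well above background on at least 1 array. A bound sets the bright signal against the higher of the dim probe's own signal and the lowest signal well above background on that array. Every probe of the 10 genes is given. For other genes the brightest probe was used, named through RefSeq's GRCm38.p6 table (26050 probes by accession, 3195 by symbol, 930 by older symbol, 9245 unnamed). Of the further lists, up to 5 measured genes with the largest differences were named, and every measured gene of the lists of S100 genes and of receptors. The members and lists were chosen with earlier results of these data known. The SD of the log2 difference between spots at the same place on both arrays had a median of 0.04 over 216 repeatedly spotted probes. Both arrays share a slide and a scan, per the file headers. The calculation was tested on simulated data. R 4.3.3 with limma 3.58.1 gave the alternatives (normexp offset 50, quantile, cyclic loess), and Python 3.11.15 the rest. With 1 array per group no p-value was computed.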

Additional observations from a re-analysis of the deposited data

How the results depend on the processing

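The counts of member probes at 2-fold or more (2 higher, 1 lower) were the same under all 9 alternatives, and no difference of 2-fold or more changed direction. Other background correction, other scaling, other filters, the deposited table and bounds were tried. The filters and the bounds leave the value of a probe above background on both arrays as it was, and the deposited table rounds the same intensities. Agreement under those settings was therefore largely fixed in advance. With normexp the difference of S100a8 was 1.03 and that of Camp 0.22. Over all probes, normexp gave 1070 higher and 842 lower by 2-fold or more. Requiring both arrays above background gave 1121 higher and 1027 lower, and no filter on dim probes gave 2572 higher and 2945 lower. These compare with 1850 higher and 1827 lower as reported. The filters change both how many probes and which probes are counted, and the shares under them were not compared. In the list of secondary and tertiary granule genes the count at least 2-fold higher ran from 0 to 3 and that at least 2-fold lower from 1 to 4, and in the list of S100 partners and receptors the count lower ran from 1 to 2. The cause of the shifts under normexp was not tested. Median scaling moved the median of all probes furthest, by 0.0925. No paired analysis was possible because each group has 1 array. Signal over background limits S100a8, Camp, Lcn2, S100a9 and Mpo.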
